A study of Mus musculus with 6 samples.

Results

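The genes described here encode aminoacyl-tRNA synthetases, the enzymes that load each amino acid onto its transfer RNA. They were chosen by symbol from the count table: 36 symbols were listed, all 36 were found among the 35976 symbols of the table, and 20 make up the cytosolic set and 16, with symbols ending in 2, the mitochondrial set. Poly(A) RNA of the mouse macrophage line RAW264.7 was counted by 3′ sequencing in 6 libraries. The labels name 3 control libraries, whose cells had no treatment, and 3 libraries of cells given itaconate for 24 h, with no dose, chemical form or vehicle stated. A time is given for the itaconate libraries only, not for the controls. Whether replicate libraries stem from different cultures is also not stated, and the p-values thus cover the spread between these libraries alone, which may be technical.

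Synthetases act before translation: they activate an amino acid with ATP and join it to the matching tRNA, which the ribosome then reads. Cytosol and mitochondrion mostly use separate nuclear genes for this step, while Gars and Kars each supply glycyl- and lysyl-tRNA synthetase to both compartments. When cells run short of amino acids, uncharged tRNA activates the kinase GCN2, which phosphorylates eIF2, and translation of the transcription factor ATF4 rises. ATF4 in turn induces genes of amino acid synthesis, amino acid transport and many cytosolic synthetases. Itaconate itself is made in the mitochondria of activated macrophages.

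Library totals ran from 5202626 to 6098934 counts, and 3 counts in a library corresponded to 0.487 to 0.565 CPM (read counts scaled by TMM to equal library sizes), for counting error only. Macrophage markers summed to 6890 to 8108 CPM in control and 5495 to 5874 CPM in itaconate libraries. Of the 8 markers 5 were called lower and 1 higher, beside 11.2% and 10.7% of all tested genes. The sum follows Csf1r most, the marker with the most counts, which fell from a mean of 3693 to 1837 CPM. The marker that rose was Cd68, from a mean of 1095 to 1346 CPM. T cell markers summed to at most 0.942 CPM, fibroblast markers to at most 2.10 CPM and epithelial markers to at most 1.12 CPM in any library, and the 3 B cell markers had no counts. In bulk samples, fewer cells of a type and less RNA per cell cannot be told apart.

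Cytosolic synthetase transcripts were mostly higher after itaconate. Of the 20 genes, all tested, 12 rose, 1 fell and 7 were not called at an edgeR adjusted p under 0.05, against 10.7% of all 10636 tested genes called higher and 11.2% called lower (21.9% in either direction). In 13 of the 20 every itaconate library lay above every control library, as in 17.6% of all tested genes. Their median log2 fold change was 0.37, beside -0.01 over all tested genes. Changes were moderate: the largest, for Cars and Eprs, were 1.79-fold. Among the 16 mitochondrial genes, also all tested, 1 rose, 2 fell and 13 were not called, and the median was 0.07.

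Summed over the set, cytosolic synthetases had 3997, 3979 and 3889 CPM in the control libraries and 5188, 5216 and 5463 CPM in the itaconate libraries. They took 0.402% ± 0.00101 of all counts in control and 0.518% ± 0.00831 in itaconate (SD, n = 3). Mitochondrial synthetases summed to 330.4, 336 and 318 CPM in control and 338, 346 and 329.8 CPM in itaconate libraries, so that the groups overlapped. The ratio of the sums went from 12.1 ± 0.186 to 15.7 ± 0.800 (SD, n = 3), with all itaconate libraries above all control libraries. No test was made of these sums, which follow the most abundant members. Reads of this assay come from near the poly(A) tail, so CPM was not divided by transcript length, and levels of different genes also depend on how well each tail is primed.

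**Figure D1:**
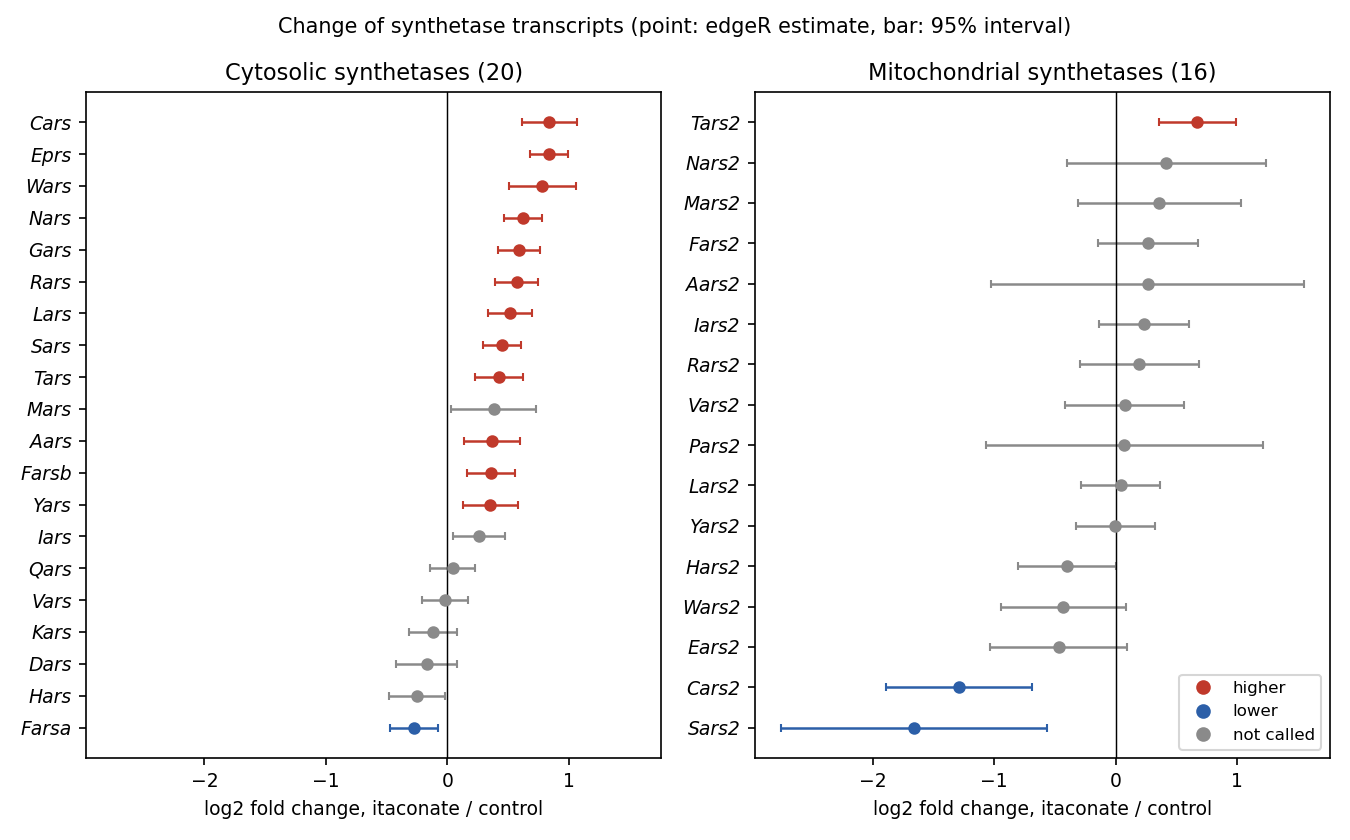
Log2 fold change (itaconate over control) of each synthetase gene with its 95% interval from the edgeR fit, cytosolic genes left and mitochondrial genes right, colored by the call at an adjusted p under 0.05. Of the 20 cytosolic genes 12 lie to the right as called higher, while 13 of the 16 mitochondrial genes were not called and have wider intervals.

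Promoters of the synthetase genes were searched because many of the cytosolic genes are known ATF4 targets, and 12 of those 20 genes were called higher. ATF4 binds, with C/EBP partners, elements whose core can be written TGATGNAA. That string was searched on both strands in RefSeq promoter windows of GRCm38.p6, which run from 250 bases before to 50 bases after a transcript start. Windows were found for 27 of the 36 genes. The 9 others, Cars, Hars, Lars, Nars, Rars, Vars, Wars, Hars2 and Pars2, were not searched. The string was present for 5 of 13 cytosolic genes and for 0 of 14 mitochondrial genes, beside 4.51% of the 27025 genes in the promoter table. A match is a string of letters in a window, not a shown binding site. The genes were chosen with earlier results of these data known, so these shares are a description and their difference was not tested. Below are the stretches that hold the 6 matches, 5′ to 3′ on the strand of the gene, with the match in capitals, cut at most 40 bases from a match and at most 30 bases past the start. They cover chr8:111033690-111033871 (plus strand) for Aars, chr6:55037931-55038018 (plus strand) for Gars, chr13:49682097-49682159 (plus strand) for Iars, chr15:11399629-11399713 (minus strand) for Tars and chr4:129189866-129189932 (plus strand) for Yars.
Aars: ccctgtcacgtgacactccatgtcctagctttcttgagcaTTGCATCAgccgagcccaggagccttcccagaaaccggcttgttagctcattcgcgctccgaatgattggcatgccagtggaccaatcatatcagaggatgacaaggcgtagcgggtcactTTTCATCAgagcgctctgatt
Gars: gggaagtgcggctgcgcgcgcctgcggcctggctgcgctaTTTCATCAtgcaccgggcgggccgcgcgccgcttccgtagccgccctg
Iars: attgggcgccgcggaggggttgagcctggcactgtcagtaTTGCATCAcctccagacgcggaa
Tars: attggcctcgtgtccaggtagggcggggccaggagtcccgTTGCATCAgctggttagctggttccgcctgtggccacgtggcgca
Yars: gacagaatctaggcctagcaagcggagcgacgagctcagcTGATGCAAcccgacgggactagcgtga
Read on the strand that starts with TGATG, Iars, Tars, Yars and the first match of Aars hold TGATGCAA, and Gars and the second match of Aars hold TGATGAAA. Distances were short: the match began 112 bases before and 9 bases after the start in Aars, 30 before in Gars, 15 before in Tars, 7 after in Iars and 3 after in Yars. Aars, Gars, Tars and Yars were called higher, and Iars was not called.

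Of the cytosolic synthetases, 8 sit in the multisynthetase complex, a particle that holds several of these enzymes together: 3 rose (Eprs, Lars and Rars) and 5 were not called. Beside them, 10.7% of all tested genes were called higher and 11.2% lower. A difference between genes inside and outside the complex was not tested. Eprs encodes the fused glutamyl- and prolyl-tRNA synthetase and had 424, 396 and 423 CPM in control and 762, 719 and 738 CPM in itaconate libraries. The groups did not overlap, and the log2 fold change was 0.84 ± 0.08 (SE, adjusted p = 2.14e-12). The gene lies on chromosome 1 from 185363044 to 185428360 (GRCm38, plus strand), and no other annotated gene overlaps its exons. Lars, for leucine, went from 231, 214 and 213 CPM to 289, 308 and 344 CPM, a log2 fold change of 0.52 ± 0.09 (adjusted p = 1.22e-05). Rars, for arginine, went from 224, 203 and 233 CPM to 320.1, 324 and 337 CPM (0.57 ± 0.09, adjusted p = 1.06e-06). The 2 groups did not overlap for either gene.

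The other members of the complex had smaller estimates. Iars, for isoleucine, had 109, 121 and 134 CPM in control and 135, 149.7 and 152 CPM in itaconate libraries. Its groups did not overlap, by less than 1 CPM, yet the log2 fold change of 0.26 ± 0.11 was not called (adjusted p = 0.0721). The last 500 exonic bases of Iars match a transcript of Gm4849 at 96.6% over 495 bases, so its count is uncertain. Mars, for methionine, had 43.9, 50.2 and 28.5 CPM against 57.8, 60.2 and 42.3 CPM, with overlapping groups (0.38 ± 0.17, adjusted p = 0.119). Its 3′ end overlaps exons of Ddit3 on the opposite strand, which encodes the stress factor CHOP and rose from 16.8 ± 3.12 to 35.6 ± 5.51 CPM (SD, n = 3). The sources used here do not state a strand setting, so reads of the pair may not be separated, and the part of Ddit3 in the value of Mars was not tested. Kars (-0.12 ± 0.10), Dars (-0.17 ± 0.13), the aspartyl enzyme, and Qars (0.04 ± 0.09), the glutaminyl enzyme, were not called and had overlapping groups.

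None of the 3 genes for the non-enzymatic scaffold of the complex was called higher. Aimp1 had a log2 fold change of -0.03 ± 0.09 and Eef1e1 of 0.15 ± 0.18, neither of them called. Aimp2 fell, from 26.1, 22.1 and 29.7 CPM in control to 15.6, 15.9 and 18.0 CPM in itaconate libraries (-0.65 ± 0.22, adjusted p = 0.0287). That call was lost without control replicate 1 (adjusted p = 0.0690), control replicate 3 (0.134), itaconate replicate 1 (0.0801) or itaconate replicate 2 (0.0916).

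Among the 12 cytosolic synthetases outside the complex, 9 rose, 1 fell and 2 were not called. The shares over all tested genes were 10.7% called higher and 11.2% called lower. Cars, for cysteine, had 73.5, 77.8 and 88.4 CPM in control and 147, 141 and 139.7 CPM in itaconate libraries, a log2 fold change of 0.84 ± 0.11 (adjusted p = 4.92e-08). Its 3′ end overlaps Gm15580, a processed pseudogene on the opposite strand, over 175 bases. Wars, for tryptophan, a gene also known to be induced by interferon, went from 42.5, 58.0 and 51.5 CPM to 85.7, 89.9 and 86.0 CPM (0.78 ± 0.14, adjusted p = 1.3e-05). Both genes were separated between the groups by more than the whole range within either group. Nars, for asparagine, rose by 0.62 ± 0.08, from 431.7 ± 24.9 to 665 ± 27.4 CPM (SD, n = 3, adjusted p = 1.4e-08).

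Gars went from 233, 236 and 261 CPM to 362, 358 and 378 CPM (0.59 ± 0.09, adjusted p = 3.76e-07). Sars, the seryl enzyme and the member with the most counts, went from 599, 552 and 549 CPM to 756, 768 and 795 CPM (0.45 ± 0.08, adjusted p = 9.03e-06). Tars, for threonine, went from 169.9, 191 and 177 CPM to 233, 213 and 279 CPM (0.43 ± 0.10, adjusted p = 0.000734). These 3 genes showed no overlap between the groups, and each was called in all 13 alternative fits.

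Weaker rises were seen for Aars (0.36 ± 0.11), Farsb (0.36 ± 0.10) and Yars (0.35 ± 0.11), for alanine, phenylalanine and tyrosine. Aars had 112, 126 and 87.5 CPM in control and 150.1, 135 and 135 CPM in itaconate libraries. It lost its call without control replicate 3 (adjusted p = 0.185) or itaconate replicate 1 (0.0873), and its last 500 exonic bases overlap Exosc6, an exosome subunit gene on the same strand that fell by 0.77 ± 0.18 on the log2 scale. Yars went from 97.3, 92.4 and 93.7 CPM to 112, 120.3 and 129.9 CPM, with its call lost without control replicate 2 (0.0614) or itaconate replicate 3 (0.0771). Its 3′ end overlaps C77080 on the opposite strand, which rose by 1.13 ± 0.16. What these neighbors contribute to the values of Aars and Yars was not tested.

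Phenylalanyl-tRNA synthetase is built from an alpha subunit, encoded by Farsa, and a beta subunit, encoded by Farsb, and the 2 genes moved in opposite directions. Farsa had 211, 203 and 197.2 CPM in control and 149.5, 158 and 197.1 CPM in itaconate libraries (-0.28 ± 0.10, adjusted p = 0.0397). Farsb had 228, 229.8 and 204 CPM in control and 250.1, 259.9 and 341 CPM in itaconate libraries (adjusted p = 0.00495). The 3′ end of Farsb overlaps Sgpp2 on the opposite strand, which had no counts in any library. Itaconate replicate 3 was the highest of its group for both genes, just under the lowest control for Farsa. The ratio of Farsb to Farsa, in which this shared rise cancels, was 1.08, 1.13 and 1.03 in control and 1.67, 1.64 and 1.73 in itaconate libraries. On the log2 scale the ratio differed by 0.64, against SDs of 0.06 and 0.04 (n = 3; the exact permutation p, two-sided, was 0.1, the lowest possible for 3 against 3). The ratio was not among the planned results. With all itaconate libraries above all controls for Farsb and below them for Farsa, it had to separate. Its p was fixed by this and adds nothing to the separate calls. The separate calls were not stable. Farsb lost its call without itaconate replicate 3 (adjusted p = 0.12). Farsa lost its call with DESeq2 (0.0638) and without control replicate 1 (0.128), control replicate 2 (0.101), control replicate 3 (0.0578), itaconate replicate 1 (0.227) or itaconate replicate 2 (0.180).

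Hars and Vars, for histidine and valine, were not called. Hars had 138, 118 and 104 CPM in control and 105, 94.4 and 104 CPM in itaconate libraries (-0.25 ± 0.12, adjusted p = 0.12). Vars had 186, 182 and 184 CPM against 179, 185 and 182 CPM, with a log2 fold change of -0.02 and a 95% interval from -0.21 to 0.17. For Vars that interval leaves out the median of the cytosolic set, 0.37, whereas 2 of the 7 cytosolic genes without a call had intervals that include it.

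Cytosolic synthetases are often divided by whether they are listed as ATF4-induced. Of 12 that often are (Aars, Cars, Eprs, Gars, Iars, Lars, Mars, Nars, Sars, Tars, Wars and Yars), 10 rose, and the 2 not called, Iars and Mars, also had log2 fold changes above 0, as 49.2% of all tested genes did. Their median was 0.48. Of the 8 others, 2 rose (Farsb and Rars), 1 fell (Farsa) and 5 were not called, with a median of -0.07. Among all tested genes, 10.7% were called higher and 11.2% lower. The division rests on general knowledge of the response and the difference between its parts was not tested. All 5 genes whose promoters held the searched string belong to the first division, which had 8 searched promoters. None of the 5 searched promoters of the second held it. Eprs, Mars and Sars of the first division were searched and lacked the string, as did Farsb, which rose. Of the 7 searched cytosolic genes called higher 4 held it, and of the 6 others 1 did. Cars, Lars, Nars, Rars and Wars rose but were not searched, and a link between the string and the changes was not tested.

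**Figure D2:**
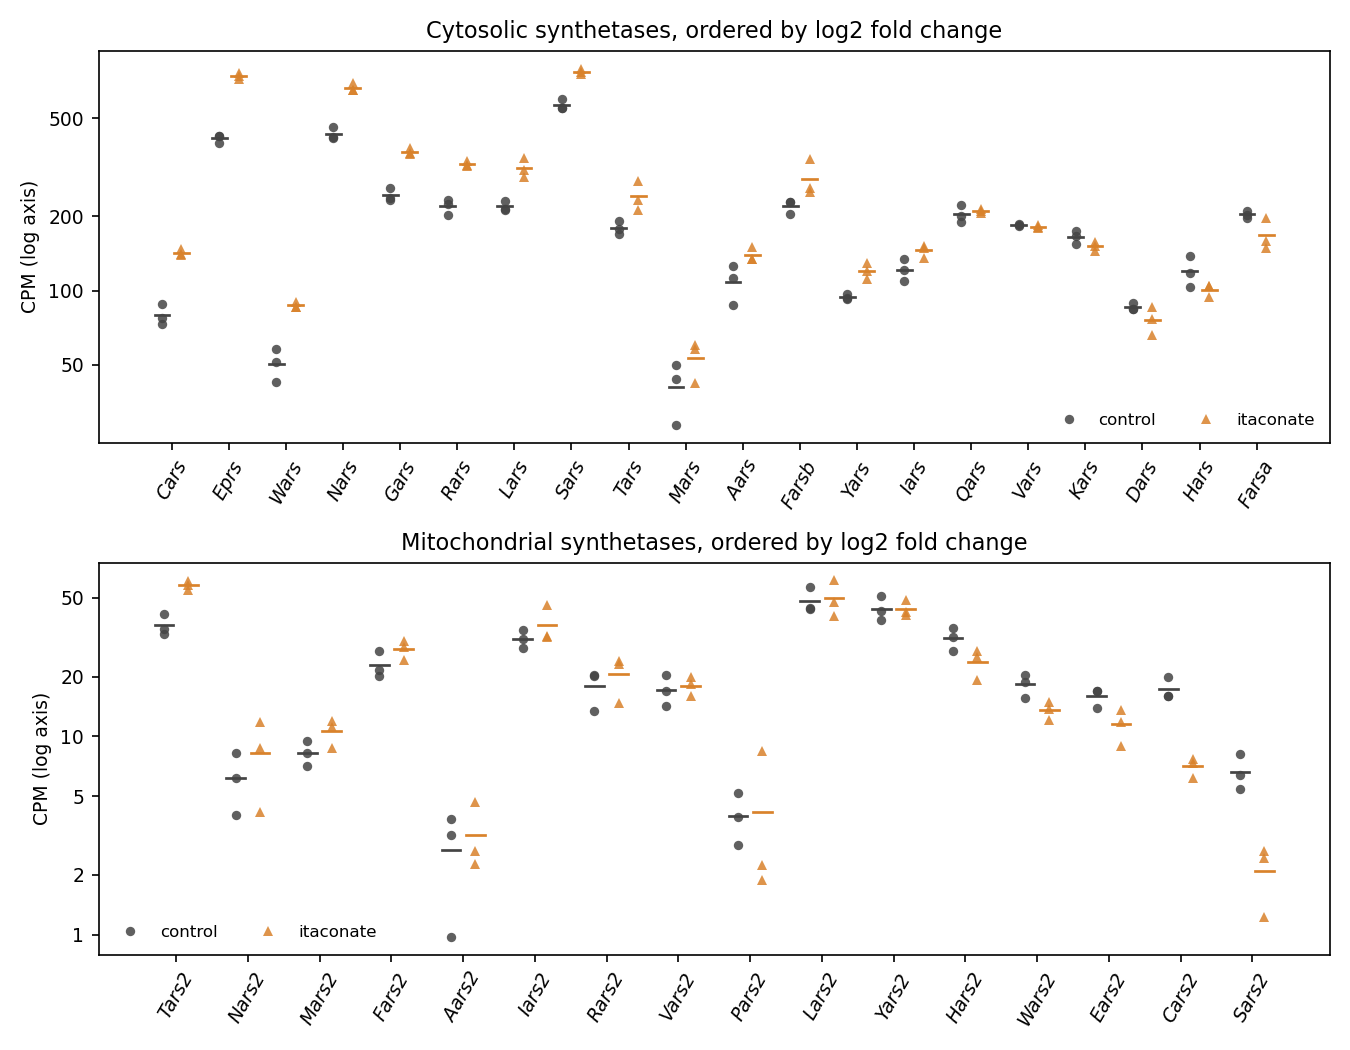
CPM (log axis) of each synthetase gene in each of the 3 control libraries (circles) and 3 itaconate libraries (triangles), with a line at each group mean, ordered by log2 fold change. For Cars, Eprs and Wars, at the left of the upper panel, the triangles stand clear of the circles, and in the lower panel Tars2 stands clear above and Cars2 and Sars2 clear below.

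Among 12 genes of the eIF2 kinases and the ATF4 axis, 7 rose, 1 fell and 4 were not called. Over all tested genes 10.7% were called higher and 11.2% lower. Of the 7, 5 are known as targets or feedback genes of ATF4: Ddit3 (1.08), Trib3 (1.57), Asns (0.95), Chac1 (0.89) and Ppp1r15a (0.82, all log2 fold changes). Sesn2, the other listed gene of that kind, was not called (0.85 ± 0.47, adjusted p = 0.214). Of the 6 genes that act up to ATF4 itself, 2 rose, 1 fell and 3 were not called. Atf4 itself had 679, 765 and 678 CPM in control and 923, 971 and 1010.0 CPM in itaconate libraries (0.45 ± 0.08, adjusted p = 7.38e-06). Eif2ak4, which encodes GCN2, the kinase that senses uncharged tRNA, went from 34.5, 47.1 and 41.8 CPM to 68.9, 60.4 and 56.3 CPM (0.59 ± 0.15, adjusted p = 0.00347). Neither gene had overlapping groups. Gcn1l1, for the partner protein of GCN2, was not called (0.09 ± 0.17), nor were the kinase genes Eif2ak1 (-0.23 ± 0.19) and Eif2ak3 (0.22 ± 0.31). Eif2ak2, for the interferon-inducible kinase PKR, fell by 0.65 ± 0.19 on the log2 scale, a call lost without control replicate 3 (adjusted p = 0.115) or itaconate replicate 1 (0.115).

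Genes for the next steps of cytosolic translation were listed as well. Of 9 elongation and termination factor genes none was called with edgeR, DESeq2 or limma-voom, beside 21.9% of all tested genes with edgeR. The count alone does not set these 9 genes apart. With edgeR, 1 of them had an unadjusted p under 0.05. That gene, Eef1b2, for a subunit of the factor that recycles eEF1A, had a log2 fold change of -0.15 ± 0.07 and was called lower with library totals in place of TMM (adjusted p = 0.0188). Eef1a1, whose product carries charged tRNA to the ribosome, had 0.04 ± 0.07, and Eef2, for the translocase, had -0.09 ± 0.07.

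In the mitochondrial set the gene that rose was Tars2, for threonine. It had 32.6, 34.9 and 41.2 CPM in control and 58.2, 60.4 and 54.6 CPM in itaconate libraries, a log2 fold change of 0.67 ± 0.16 (adjusted p = 0.00102). All itaconate libraries lay above all controls, and the call held in all 13 alternative fits. Tars2 lies on chromosome 3 from 95739976 to 95760206 (GRCm38, minus strand), with no other annotated gene in its exons.

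The 2 mitochondrial genes that fell did so by more than any cytosolic gene changed. Cars2, for cysteine, had 19.9, 15.9 and 16.05 CPM in control and 7.72, 6.17 and 7.34 CPM in itaconate libraries, a 0.410-fold level (log2 fold change -1.29 ± 0.30, adjusted p = 0.000909), and was called in all 13 alternative fits. Its last 500 exonic bases overlap Naxd on the opposite strand, listed in the table under the older symbol Carkd, which was not called (0.35 ± 0.18, adjusted p = 0.178). Sars2, for serine, rested on few reads: 38, 50 and 29 counts in control and 14, 13 and 7 counts in itaconate libraries. Its groups did not overlap, as for 17.9% of all tested genes in that direction, and its log2 fold change was -1.66 ± 0.55 (adjusted p = 0.022). The call of Sars2 was lost without control replicate 1 (adjusted p = 0.0520), control replicate 2 (0.121) or itaconate replicate 3 (0.0721).

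Among the mitochondrial genes without a call, 3 had all itaconate libraries below all control libraries, as 17.9% of all tested genes did. They were Ears2 for glutamate (-0.47 ± 0.28), Hars2 for histidine (-0.40 ± 0.20) and Wars2 for tryptophan (-0.43 ± 0.25). Hars2 had 31.6, 35.1 and 27.1 CPM in control and 19.2, 25.0 and 26.8 CPM in itaconate libraries (adjusted p = 0.154). Hars2 and Hars lie head to head on chromosome 18, Hars from 36766528 to 36783205 on the minus strand and Hars2 from 36783008 to 36792562 on the plus strand, so that their first exons overlap. Both had log2 fold changes below 0 and neither was called.

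The remaining 10 mitochondrial genes had overlapping groups. Yars2 (0.00 ± 0.16), Lars2 (0.04 ± 0.16), Pars2 (0.07 ± 0.57) and Vars2 (0.07 ± 0.24) had the estimates nearest 0. Estimates of 0.19 to 0.42 were obtained for Rars2, Iars2, Aars2, Fars2, Mars2 and Nars2. Iars2 shares its last 500 exonic bases with Rab3gap2 on the opposite strand, which was not called (0.48 ± 0.22). In Pars2, for proline, itaconate replicate 3 stood at 8.39 CPM beside 1.88 and 2.24 CPM in the other itaconate libraries, and in Aars2, for alanine, control replicate 2 stood at 0.975 CPM beside 3.85 and 3.17 CPM. Both are among the genes with the fewest counts.

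Depth limited the mitochondrial set more than the cytosolic set. Mitochondrial members had a median of 94.9 counts per library, with a range of 16.3 to 274.8 over genes, and cytosolic members a median of 1045, with a range of 266 to 3765. Standard errors of the log2 fold change ran from 0.16 to 0.64 (median 0.25) in the mitochondrial set and from 0.08 to 0.17 (median 0.10) in the cytosolic set. Of the 13 mitochondrial genes not called, 8 had a 95% interval that includes 0.37, the cytosolic median. For those 8 genes a rise of that size was not excluded, and a missing call does not show that a gene stayed level.

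**Figure D3:**
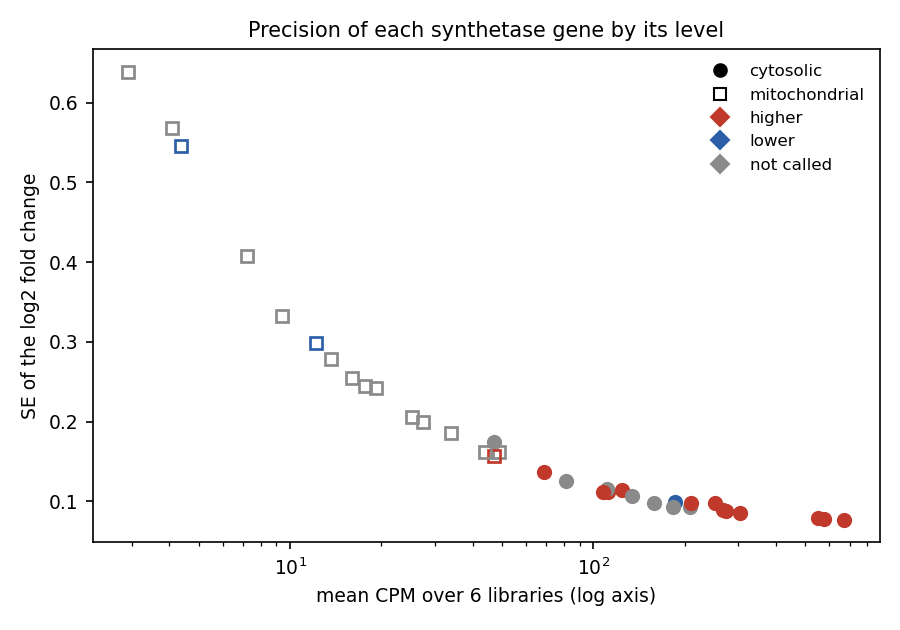
Standard error of the log2 fold change against the mean CPM over 6 libraries (log axis) for each synthetase gene, filled circles for cytosolic and open squares for mitochondrial genes, colored by call. The error falls from 0.64 at the lowest level to 0.08 at the highest, and most mitochondrial genes lie at the left with the larger errors.

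Cytosolic and mitochondrial genes for the same amino acid were set side by side in 15 pairs, with Farsa and Farsb each set against Fars2. The ratio of the cytosolic to the mitochondrial CPM was higher in all itaconate than in all control libraries for 4 pairs, lower for 1 and overlapping for 10. Taken as single genes, 35.6% of all tested genes had groups that did not overlap. The count of pairs alone thus does not set them apart. For Cars over Cars2 the ratio ran from 3.69 to 5.51 in control and from 19.02 to 22.94 in itaconate libraries. For Sars over Sars2 it ran from 68.0 to 101 and from 287 to 649, and for Wars over Wars2 from 2.27 to 3.29 and from 5.79 to 7.40. In these 3 pairs the cytosolic gene rose while the estimate of the mitochondrial gene was below 0. The itaconate ratios of Sars over Sars2 rest on only 14, 13 and 7 counts of Sars2. Yars over Yars2 was the fourth pair with a higher ratio, from 1.82 to 2.43 and from 2.48 to 3.06, and Farsa over Fars2 was the pair with a lower one, from 7.88 to 10.1 and from 5.65 to 6.51. The exact two-sided permutation p was 0.1 for each of these 5 pairs, the smallest possible with 3 against 3, and 0.3 after adjustment over the 15 pairs. In Tars and Tars2 both genes rose and the ratio overlapped between the groups (exact permutation p = 0.2, adjusted 0.5).

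**Figure D4:**
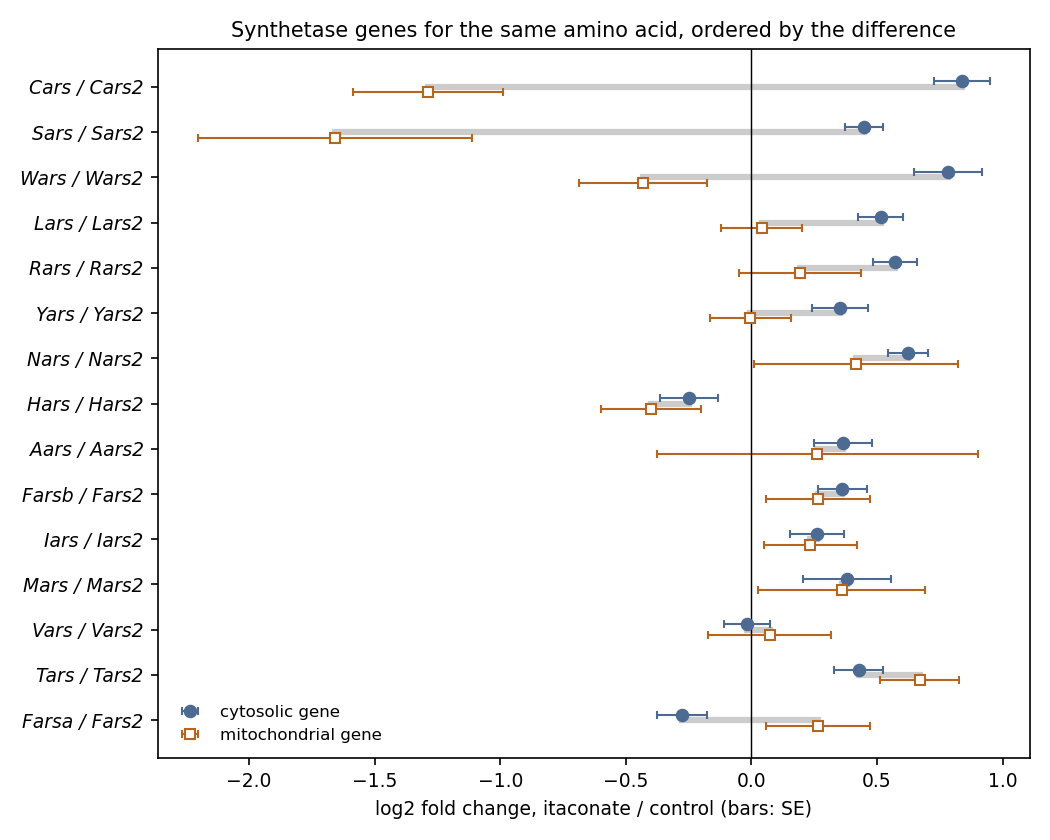
Log2 fold change (itaconate over control) of the cytosolic gene (filled circle) and the mitochondrial gene (open square) for the same amino acid, with SE bars, in 15 pairs ordered by the difference. The symbols are far apart for Cars and Cars2 (0.84 and -1.29), Sars and Sars2 (0.45 and -1.66) and Wars and Wars2 (0.78 and -0.43), and close for most other pairs. The estimate of Sars2 rests on few counts.

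Partners of the synthetases in tRNA charging and editing were described the same way. Of 12 listed genes, 11 were tested, of which none rose, 2 fell and 9 were not called, with a median of -0.33. Beside them, 10.7% of all tested genes were called higher and 11.2% lower, so the counts alone do not set these 11 genes apart. Dtd1, whose enzyme removes D-amino acids from mischarged tRNA, went from 38.0, 42.4 and 33.8 CPM to 22.8, 24.5 and 22.6 CPM (-0.71 ± 0.19, adjusted p = 0.00351). Aarsd1, which encodes a free-standing alanyl-tRNA editing protein, had -0.35 ± 0.13 (adjusted p = 0.0462) and lost its call in 8 of 13 alternative fits, DESeq2 (0.0644) and limma-voom (0.0551) among them. The mitochondrial amidotransferase, which makes glutaminyl-tRNA in place of a mitochondrial glutaminyl synthetase, has 3 subunit genes, and none was called: Qrsl1 (-0.33 ± 0.24), Gatb (-0.48 ± 0.21) and Gatc (0.23 ± 0.18). Pstk, for a kinase in the making of selenocysteyl-tRNA, had 0.82 ± 0.31 with edgeR (adjusted p = 0.0524) and was called higher with limma-voom (0.0441) and with the replicate number as a block (0.0482).

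Translation factors of the mitochondrion were tested as 9 genes, of which none was called with edgeR, DESeq2 or limma-voom. With edgeR 21.9% of all tested genes were called, so the count alone does not set these 9 genes apart. Only 1 of them, Mtif2, had an unadjusted edgeR p under 0.05. Mtif2, for the initiation factor, had a log2 fold change of 0.37 ± 0.18, and Tufm, for the elongation factor that carries charged tRNA, had 0.28 ± 0.28. The median of these 9 genes was 0.07.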

How the data were processed

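The authors deposited raw counts of reads per gene symbol, not normalized, for 6 libraries. The kit was Lexogen's QuantSeq FWD, per the labels' protocols. Tools listed in the submitters' processing notes are STAR (2.7.5a), HTSeq (0.6.1) and edgeR, with mm10 as the build. How strand and multi-mapping reads were handled, and which annotation was used, is not given in the sources used here. All 6 count columns were used. Of 35976 symbols, 10636 passed edgeR's filterByExpr (minimum count 10, minimum total 15). The whole table was fitted with edgeR's quasi-likelihood test (edgeR 4.0.16, R 4.3.3, TMM, robust dispersion, group as the only term), two-sided, with Benjamini-Hochberg adjustment over all tested genes and a call at adjusted p under 0.05. SE is the absolute log2 fold change over the square root of F, and intervals are 95% from the fit's degrees of freedom. The procedure was tested on simulated data. Coordinates and overlaps come from GENCODE M21 (GRCm38, which mm10 names). Shared 3′ ends are matches of at least 75 bases at 95% identity in the last 500 exonic bases. Alternatives were DESeq2 1.42.0, limma-voom (limma 3.58.1), other scalings and filters, a replicate block and leaving out each library. Every member was named, and of the related lists any called member could be named. Other members of those lists were named after their values were seen. The members and lists were chosen with earlier results of these data known, so no set test was made.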

Additional observations from a re-analysis of the deposited data

How the results depend on the processing

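Of the 16 synthetase genes called, 11 kept their call in all 13 alternative fits: Cars, Eprs, Gars, Lars, Nars, Rars, Sars, Tars, Wars, Cars2 and Tars2. No called member changed direction in these fits. The count of cytosolic genes called higher was 11 to 12 when any library was left out and 12 in each of the 7 other fits. The count of cytosolic genes called lower was 0 with DESeq2 and 0 to 1 when a library was left out. The gene called was Farsa, except without control replicate 3, where it was Hars and Farsa was not called (adjusted p = 0.0578). Mitochondrial genes called lower numbered 1 to 2 when a library was left out. The cytosolic median ran from 0.34 to 0.45 and the mitochondrial median from 0.02 to 0.11 over the fits that leave out a library. Of the members not called, Hars without control replicate 3 (adjusted p = 0.0445), Iars without control replicate 3 (0.0399) and Mars without control replicate 2 (0.0478) or itaconate replicate 3 (0.0300) passed. In an alternative added after seeing the data, the 8 members whose last 500 exonic bases overlap or match another gene were left out. Then 8 cytosolic genes were called higher and 1 lower, and 1 mitochondrial gene was called lower, with a cytosolic median of 0.44. With the replicate number of the titles as a block, the member counts were the same and 1087 genes in all were called higher and 1160 lower, against 1133 and 1191 without the block. With library totals in place of TMM, 935 genes in all were called higher and 1429 lower, while the member counts were the same. Deviations of same-numbered libraries correlated at -0.0135, 0.0171 and 0.0380, so the numbers were not taken to pair the libraries. No batch or date is given, and counting depth limits the mitochondrial genes most.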
